A study of Mus musculus with 2 samples.

Results

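The 9 genes described here encode voltage-gated sodium channel subunits and the intracellular fibroblast growth factors that bind those channels. They are the matrix rows whose symbols are Scn1a, Scn2a, Scn3a, Scn8a, Scn2b, Scn3b, Fgf12, Fgf13 and Fgf14, so 9 of the 30431 listed genes, and each symbol matched a single row. Counts of unique molecular identifiers (UMIs, each a captured RNA molecule) came from single nuclei of dorsal CA1, a field of the mouse hippocampus. One library was labelled epilepsy and one control. The epileptic mice were male C57BL/6J animals carrying Calb1::Cre and Tdtomato alleles, aged 6 to 7 weeks when they were given repeated kainate (5 mg/kg) until status epilepticus, which diazepam (4 mg/kg) ended. The control mice had the same strain, sex, age and alleles and were given vehicle (saline or DMSO). Nuclei were taken 12 weeks after status, in the chronic epileptic phase, from 2 mice per condition. The labels do not say how the mice were divided over the single library of each condition, or which gate sorted the nuclei. The Cre allele is driven from Calb1, a gene of superficial pyramidal cells, and both libraries carry it.

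Voltage-gated sodium channels carry the inward current of the action potential. Scn1a, Scn2a, Scn3a and Scn8a encode pore-forming alpha subunits, while Scn2b and Scn3b encode beta subunits that pair with them and adjust gating and membrane placement. Fgf12, Fgf13 and Fgf14 encode intracellular factors that are not secreted, bind the tail of the alpha subunits and adjust their inactivation. Channels and factors gather at the axon initial segment, where ankyrin holds them and where spikes start. Loss of function of the channel encoded by Scn1a is a known cause of epilepsy, largely through inhibitory neurons.

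The epilepsy library held 3078 nuclei and 7112131 UMIs, and the control library 3661 nuclei and 11858162 UMIs, with medians of 2443 and 3447 UMIs per nucleus. The libraries shared 16 barcodes. After removal of likely doublets, 2986 epilepsy and 3551 control nuclei were grouped by clusters made without the 9 genes. CA1 pyramidal-like nuclei, marked by Slc17a7, Neurod6 and Wfs1, numbered 2029 in epilepsy and 2453 in control. They divided into 1165 and 1318 superficial-like nuclei (Calb1 and Epha3 higher), 495 and 717 deep-like nuclei (Ndst4 and Col11a1 higher) and 369 and 418 nuclei of a cluster led by activity-linked genes such as Pcsk1, Nr4a3 and Homer1. Interneuron-like nuclei fell into 3 groups. A Sst/Sox6 group with little Adarb2 held 58 and 82 nuclei, an Adarb2/Cnr1 group 49 and 60, and a Lamp5/Sv2c group with less Adarb2 and little Cnr1 36 and 54. Oligodendrocyte-like nuclei numbered 264 and 175. Levels are given as CPM, a gene's UMIs over all UMIs of the group scaled to 1000000, with exact Poisson intervals at 95%. With 1 library per condition no difference has a replicate check, no p-value can be given, and all intervals cover counting error only. CPM values of different genes are not compared, because no length scale applies to them.

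Markers of pyramidal cells were also read outside those cells. In oligodendrocyte-like nuclei, 9 CA1 pyramidal marker genes stood at a median of 27.2% of their pyramidal level in epilepsy and 20.8% in control. Scn1a stood there at 27.3% and 27.4% of its pyramidal level, Scn8a at 25.2% and 25.1%, Fgf14 at 26.4% and 18.0%, and Scn2a at 16.4% and 10.9%. These shares lie near that median or below it, except those of Scn1a and Scn8a in control, which lie above it. All lie within the ranges that the 9 markers covered. Whether these shares are background (free RNA, doublets or mixed nuclei) or RNA of the cells themselves was not tested. Scn3a stood at 48.5% and 22.8%, on 7 and 3 UMIs. The share for Fgf13 was 71.4% (28.5% to 149%) in epilepsy and 73.1% (26.7% to 160%) in control, but rested on 7 and 6 UMIs. Fgf12 stood at 40.0% (29.3% to 53.3%) and 25.3% (17.3% to 35.8%), within the ranges of 0% to 68.5% and 0% to 37.0% that the 9 markers covered.

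Fgf13, on chromosome X, had the most uneven distribution of the 9 genes. In the Lamp5/Sv2c interneuron-like nuclei it reached 3574 CPM (3162 to 4025) in epilepsy and 4195 CPM (3889 to 4517) in control. In the CA1 pyramidal-like nuclei it stood at 59.3 CPM (53.0 to 66.1) and 52.6 CPM (48.0 to 57.5). The Lamp5/Sv2c group was therefore 60.3-fold (51.1 to 71.0) above the pyramidal group in epilepsy and 79.8-fold (70.9 to 89.8) above it in control. The Sst/Sox6 group had 407 and 433 CPM and the Adarb2/Cnr1 group 402 and 608 CPM. The intervals of those last groups overlapped in both libraries, so their order is not fixed, while both lay well above the pyramidal level. Fgf13 codes for a factor that also binds microtubules.

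Single nuclei gave the same picture. In the Lamp5/Sv2c group, 34 of 36 epilepsy nuclei and 53 of 54 control nuclei held at least 1 Fgf13 UMI, with medians of 6 and 11 UMIs and highest values of 23 and 39. In CA1 pyramidal-like nuclei 14.5% and 17.3% held a Fgf13 UMI and no nucleus held more than 3. In oligodendrocyte-like nuclei, at median depths of 595 and 795 UMIs against 2693 and 3735 in pyramidal-like nuclei, the shares were 2.65% and 3.43%. When each nucleus was thinned to 1000 UMIs, 88.6% and 98.0% of the Lamp5/Sv2c nuclei still held a Fgf13 UMI, against 5.67% and 4.65% of the pyramidal-like nuclei. This thinning left out 1 and 4 Lamp5/Sv2c nuclei and 2 and 0 pyramidal-like nuclei. The mean over the thinned Lamp5/Sv2c nuclei was 3.94 UMIs in epilepsy and 3.72 UMIs in control, without the gap seen between the medians of 6 and 11.

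**Figure D1:**
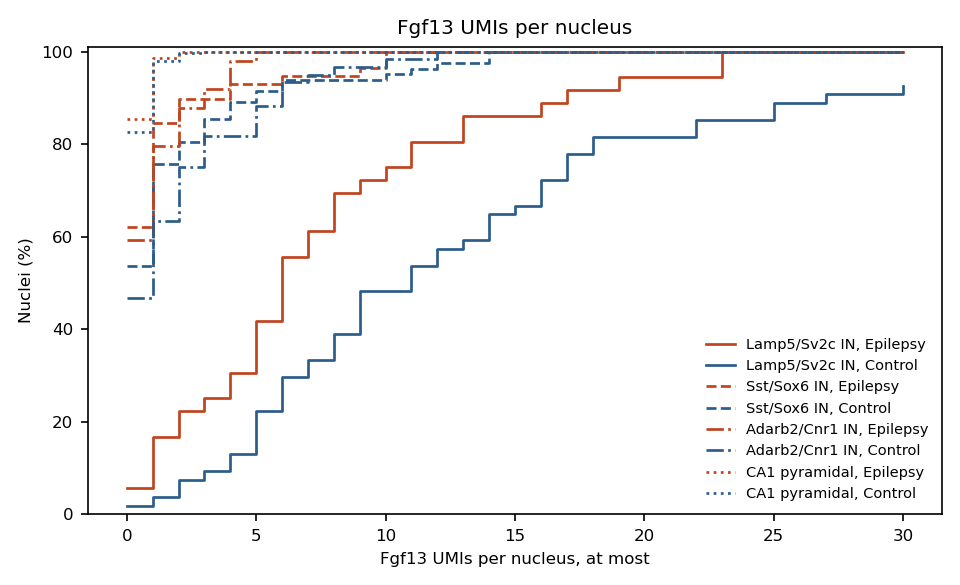
Cumulative percent of nuclei (y axis) with at most the number of Fgf13 UMIs on the x axis, which stops at 30, for CA1 pyramidal-like nuclei and 3 interneuron-like (IN) groups; red lines are epilepsy and blue lines control, not adjusted for depth. The solid Lamp5/Sv2c lines, with medians of 6 and 11 UMIs, lie far to the right of all others.

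Fgf13 has 4 transcription starts in RefSeq, spread over 451136 bases, and those starts are known to give isoforms with different first exons. The 3′ UMIs do not tell the starts apart. Upstream sequence is printed for a pair of them that are unlike in composition. Of the 9 genes, 7 have an entry in the RefSeq promoter table of GRCm38.p6, with 15 starts in all. The 250 bases before each start were searched on both strands for TATAAA (a core promoter motif), TAAAAATA (the core of a MEF2 motif) and TGACGTCA (a CRE), none of which lies within another. The farthest upstream Fgf13 start has 45.6% G and C in the 250 bases at chrX:59585573-59585822 (minus strand), with the MEF2 core in capitals. The start nearest to it has 74.8% G and C at chrX:59567349-59567598 (minus strand) and none of the motifs. The remaining Fgf13 starts, not printed, have 40.4% and 74.4% G and C and none of the motifs.
Fgf13 farthest start: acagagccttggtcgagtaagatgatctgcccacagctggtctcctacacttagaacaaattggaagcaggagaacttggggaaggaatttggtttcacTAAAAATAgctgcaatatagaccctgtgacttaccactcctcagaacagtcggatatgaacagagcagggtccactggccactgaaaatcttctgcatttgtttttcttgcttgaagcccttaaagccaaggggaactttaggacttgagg
Fgf13 next start: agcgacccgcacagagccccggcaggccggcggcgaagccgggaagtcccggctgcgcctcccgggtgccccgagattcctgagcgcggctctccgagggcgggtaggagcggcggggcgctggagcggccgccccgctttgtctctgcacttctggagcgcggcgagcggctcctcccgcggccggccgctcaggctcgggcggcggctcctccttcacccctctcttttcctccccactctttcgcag
The MEF2 core was found in 2.45% of all 32851 RefSeq promoters over the same length, TATAAA in 12.4% and the CRE in 1.55%. Among the 15 starts of the 9 genes, TATAAA was found before 1 Scn2a start and the MEF2 core before this Fgf13 start and 1 Fgf12 start. A match describes these letters and is not a measured site.

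Fgf12 had nearly the opposite order across interneurons. It was highest in the Sst/Sox6 group, at 2376 CPM (2137 to 2633) in epilepsy and 2724 CPM (2542 to 2915) in control. The Adarb2/Cnr1 group followed with 1727 and 1709 CPM. The Lamp5/Sv2c group, highest for Fgf13, had only 460 CPM (320 to 640) and 468 CPM (370 to 584), or 64.7% and 57.8% of the pyramidal level. At a Leiden resolution of 2.0, a finer division into clusters, the epilepsy group was above the pyramidal level (log2 ratio 0.61, 0.35 to 0.86). The Sst/Sox6 and Adarb2/Cnr1 intervals were apart in both libraries. Fgf14, a gene mutated in a human spinocerebellar ataxia, was more even. Its level was 3022 and 3018 CPM in the Lamp5/Sv2c group, 1688 and 2197 CPM in the Adarb2/Cnr1 group, 1746 and 1893 CPM in the Sst/Sox6 group, and 1329 and 1498 CPM in pyramidal-like nuclei. The Lamp5/Sv2c group stood at 2.27-fold and 2.02-fold of the pyramidal level, with intervals of 2644 to 3439 CPM and 2760 to 3294 CPM that those of no other of the 7 groups overlapped.

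**Figure D2:**
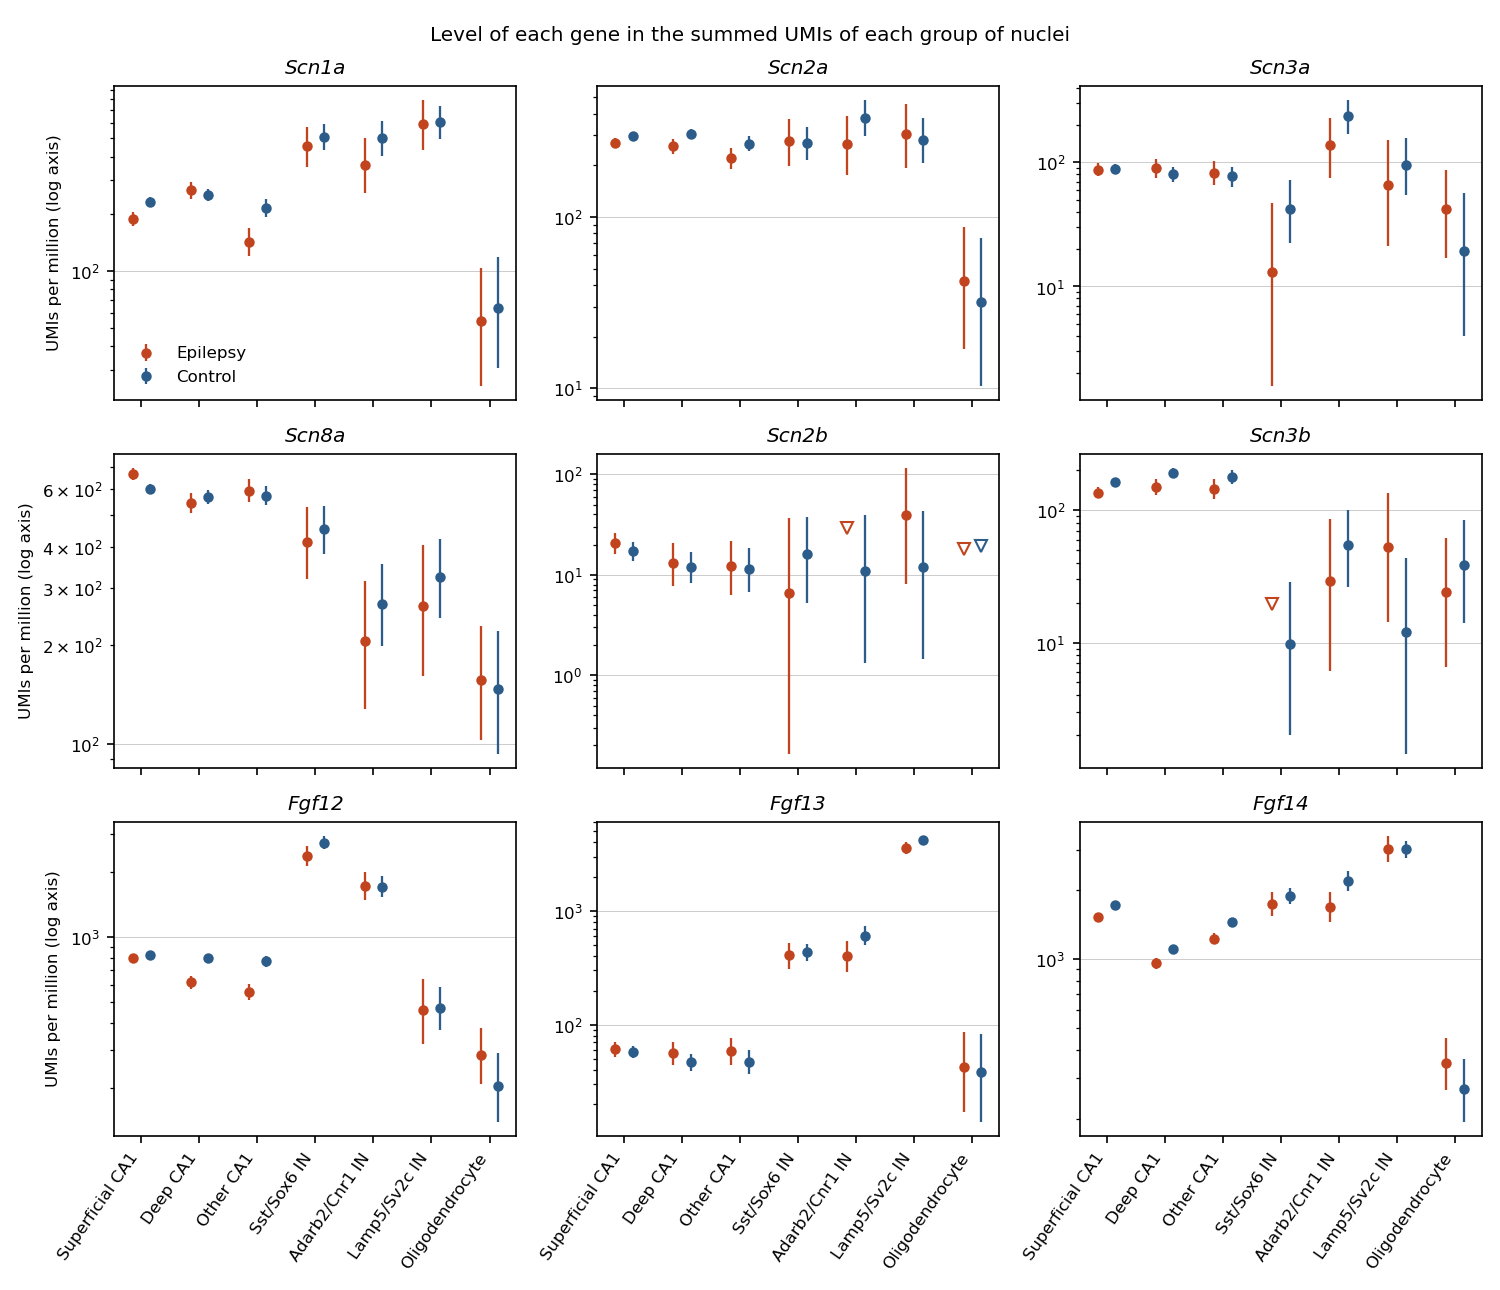
CPM of each of the 9 genes (log y axis, its own range in each panel) in the summed UMIs of 7 groups of nuclei, epilepsy in red and control in blue; bars are 95% Poisson intervals and open triangles the limit set by 0 UMIs. Fgf13 and Fgf12 peak in different interneuron-like (IN) groups, and Scn3b is highest in the CA1 pyramidal groups.

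Of the alpha subunits, Scn1a and Scn8a divided between interneuron-like and pyramidal-like nuclei. Scn1a, the alpha subunit most tied to inhibitory neurons, was at 453 and 508 CPM in the Sst/Sox6 group, 363 and 499 CPM in the Adarb2/Cnr1 group and 591 and 606 CPM in the Lamp5/Sv2c group. CA1 pyramidal-like nuclei had 199 CPM (187 to 211) in epilepsy and 234 CPM (224 to 244) in control. The interneuron-like groups were thus 1.82-fold to 2.97-fold above the pyramidal group in epilepsy and 2.13-fold to 2.59-fold above it in control, with all 6 intervals above 1. The 3 interneuron-like groups overlapped with their neighbours in the order.

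Scn8a, whose channel dominates the mature axon initial segment, ran the other way. Pyramidal-like nuclei had 623 CPM (602 to 644) in epilepsy and 587 CPM (572 to 603) in control. The Sst/Sox6 group stood at 66.3% and 77.1% of that level, the Lamp5/Sv2c group at 42.2% and 55.2%, and the Adarb2/Cnr1 group at 33.1% and 45.7%. All 6 intervals lay below the pyramidal level. The 9 pyramidal markers stood at medians of 1.80% to 22.2% of their pyramidal level in these groups, and the part of such background in the interneuron levels was not tested.

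Scn2a, which encodes the alpha subunit of excitatory axons and early development, was even among neurons. It stood at 258 and 294 CPM in pyramidal-like nuclei and between 265 and 302 CPM in the epilepsy interneuron-like groups, against 270 to 378 CPM in the control ones. The intervals of neighbouring neuronal groups overlapped throughout. Scn3a, an alpha subunit best known from embryonic brain, was at 87.2 and 84.3 CPM in pyramidal-like nuclei. Its Adarb2/Cnr1 level was 137 CPM (75.1 to 230) in epilepsy and 236 CPM (170 to 317) in control, while the Sst/Sox6 level was 13.1 CPM (1.59 to 47.4) and 42.4 CPM (22.6 to 72.4), on 2 and 13 UMIs. Those intervals were apart in both libraries.

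The beta subunits were read at lower counts. Among the 7 groups, Scn3b was highest in those of CA1 pyramidal-like nuclei, which together had 141 CPM (131 to 151) in epilepsy and 173 CPM (165 to 182) in control. The Adarb2/Cnr1 group had 29.4 and 54.8 CPM and the Lamp5/Sv2c group 52.6 and 12.0 CPM, on 2 to 10 UMIs. Under 7 other processing settings, the epilepsy log2 ratio of the Lamp5/Sv2c group to the pyramidal level ran from −1.76 to −0.15. The Sst/Sox6 group had 0 UMIs in epilepsy, which allows up to 19.7 CPM at the limit of 3 counts, and 9.78 CPM in control. The Adarb2/Cnr1 level was 20.9% and 31.7% of the pyramidal one, beside medians of 22.2% and 15.0% for the pyramidal markers there. Scn2b had 95 and 134 UMIs in all pyramidal-like nuclei, or 17.3 and 14.7 CPM, and 4 and 9 UMIs in all interneuron-like nuclei, so its order among cell groups was not detectable at this depth. An overlapping gene on the opposite strand, Gm10684, held 289 UMIs, and the labels do not say whether counting used the strand.

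Groups with fewer than 30 nuclei in a library are given as levels only. Dentate granule-like nuclei, 14 in epilepsy and 154 in control, had 2042 CPM (1334 to 2992) and 2720 CPM (2537 to 2912) of Fgf14 and 78.5 and 224 CPM of Scn3a, the epilepsy Scn3a value from 1 UMI. Their Scn3b was at 0 UMIs in epilepsy and at 119 CPM in control, on 36 UMIs, beside 173 CPM in control CA1 pyramidal-like nuclei. CA2/CA3 pyramidal-like nuclei, 51 and 18, had 1115 and 1270 CPM of Fgf12. Their Scn3b was at 34.0 and 26.2 CPM, on 6 and 2 UMIs. Oligodendrocyte precursor-like nuclei, 38 and 24, had 1195 CPM (842 to 1648) and 1642 CPM (1188 to 2212) of Fgf14, above the oligodendrocyte-like values of 351 and 269 CPM. Astrocyte-like nuclei, 28 and 26, had 231 CPM (84.6 to 502) and 472 CPM (270 to 767) of Fgf13 on 6 and 16 UMIs, higher than in pyramidal-like nuclei in both libraries. Clusters with Cajal-Retzius markers had 19 and 31 nuclei, with 2067 and 2945 CPM of Fgf14.

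The comparison of epilepsy with control asked how chronic epilepsy left these genes in the principal cells. A log2 ratio of 0.32 in size (25% higher or 20% lower) served as the mark for counting genes. In CA1 pyramidal-like nuclei, 0 of the 9 genes reached this mark, against 28.6% of the 9006 genes with at least 100 UMIs and 17.3% of the 4062 genes with at least 500. At 1.5-fold it was also 0 of 9, against 9.34%, and at 2-fold 0 of 9, against 2.37%. The median log2 ratio of the 9 genes was −0.17, beside −0.02 for those 9006 genes. Scn3b had the largest ratio in size, at 141 CPM in epilepsy and 173 CPM in control (log2 ratio −0.30, −0.43 to −0.17). Scn1a was at 199 and 234 CPM (−0.23, −0.34 to −0.13). Lower values in epilepsy were also found for Fgf12 (711 and 810 CPM, −0.19), Scn2a (258 and 294 CPM, −0.18) and Fgf14 (1329 and 1498 CPM, −0.17), with intervals below 0.

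Scn8a, at 623 CPM in epilepsy and 587 CPM in control, had a log2 ratio of 0.09 (0.02 to 0.15). With TMM scaling, which moved all pyramidal ratios by −0.07, it was 0.01. The intervals of Scn3a (0.05), Fgf13 (0.17) and Scn2b (0.24) held 0. The ratio of Scn3b was −0.44 after thinning each nucleus to 1000 UMIs, and with that thinning 3 genes passed the mark, the other two being Fgf13 (0.32, −0.05 to 0.70) and Scn2b (0.55, −0.15 to 1.26), both higher in epilepsy with intervals that held 0. Summed markers of other cell types in these nuclei were 138 and 110 CPM for 7 oligodendrocyte genes (0 of them at 0 in both libraries), 33.0 and 40.0 CPM for 6 astrocyte genes (1 and 0 at 0), 50.5 and 36.3 CPM for 5 microglia genes (0 at 0), and 74.3 and 51.7 CPM for 6 interneuron genes (1 and 0 at 0). Their part in the ratios was not tested.

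**Figure D3:**
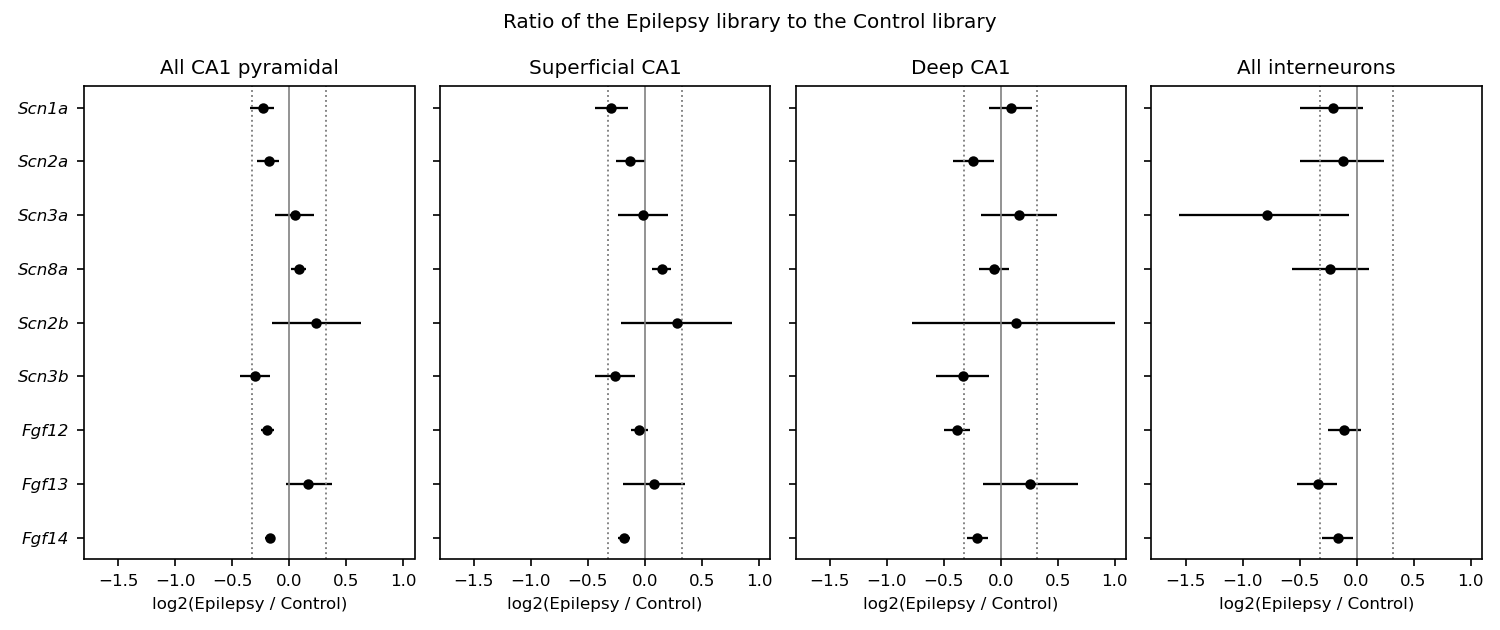
Log2 ratio of epilepsy to control (x axis) for each gene in 4 groups of nuclei; bars are 95% intervals of counting error and dotted lines mark 0.32 in size. In all CA1 pyramidal-like nuclei every point lies within the dotted lines, from −0.30 for Scn3b to 0.24 for Scn2b; genes with fewer than 50 UMIs in a group are not drawn.

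In superficial-like nuclei, 0 of 9 genes passed the mark, against 28.5% of 7316 genes, though 1 or 2 passed it under each of 9 alternatives. In deep-like nuclei it was 2 of 9, Fgf12 and Scn3b, both lower, against 30.4% of 4994 genes in either direction and 17.7% lower. Superficial cells lie near the stratum radiatum and express Calb1, while deep cells lie toward the stratum oriens. Fgf12 was at 800 and 826 CPM in superficial-like nuclei (log2 ratio −0.05, −0.12 to 0.03) and at 616 and 803 CPM in deep-like nuclei (−0.38, −0.50 to −0.27). The difference of these ratios, superficial minus deep, was 0.34 (0.20 to 0.47).

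Scn1a went the other way, with 188 and 231 CPM in superficial-like nuclei (−0.30, −0.44 to −0.15) and 266 and 250 CPM in deep-like nuclei (0.09, −0.10 to 0.27), a difference of −0.39 (−0.62 to −0.15). Scn8a had 666 and 602 CPM in superficial-like nuclei (0.15) and 545 and 568 CPM in deep-like nuclei (−0.06), a difference of 0.21 (0.05 to 0.36) whose interval held 0 under 5 of the 6 alternatives that give one. For the other 6 genes the interval of the difference held 0. Scn3b was lower in epilepsy in both, at 135 and 162 CPM in superficial-like nuclei (−0.26, −0.44 to −0.09) and 150 and 190 CPM in deep-like nuclei (−0.33, −0.57 to −0.10). Among the 4980 genes with at least 100 UMIs in each sublayer, 27.6% had differences of ratios past the mark. The size reached by Scn1a and Fgf12 was thus common over these genes. A share over genes with counts as high as theirs was not computed. With the sublayers divided at the median of a marker score instead, the deep Scn1a ratio was −0.14 beside −0.39 for the superficial one, and the Fgf12 difference was 0.16. The deep Scn1a ratio was below 0 under 6 of 9 alternatives, so its sign is not fixed.

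In nuclei of the activity-gene cluster, the Scn1a and Fgf12 ratios were larger in size than in either sublayer. Their intervals overlapped those of superficial-like nuclei for Scn1a (−0.44 to −0.15) and of deep-like nuclei for Fgf12 (−0.50 to −0.27). No interval of a difference from the sublayers was computed for this cluster. Scn1a was at 142 CPM (119 to 168) in epilepsy and 214 CPM (191 to 239) in control, a log2 ratio of −0.59 (−0.89 to −0.30). Fgf12 was at 558 CPM (512 to 607) and 773 CPM (729 to 819), a ratio of −0.47 (−0.62 to −0.32). These were 2 of 8 genes with at least 50 UMIs, both lower, against 31.7% of 3471 genes past the mark in either direction and 18.1% lower (37.9% in either direction over the 5537 genes with at least 50 UMIs). With thinning, 4 genes passed it. By the naming rule this cluster was neither deep-like nor superficial-like. Its ratios were available under only 5 alternatives, against 8 for all CA1 pyramidal-like nuclei. Over those 5, the Scn1a ratio ran from −0.59 to −0.38 and the Fgf12 ratio from −0.50 to −0.32. Whether the ratios hold under the remaining alternatives was not tested.

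Set side by side within a library, the superficial-like and deep-like nuclei differed most in Fgf14. In epilepsy, Fgf14 was at 1522 CPM (1479 to 1566) in superficial-like and 959 CPM (908 to 1012) in deep-like nuclei, a log2 ratio of 0.67 (0.58 to 0.76). In control the levels were 1730 CPM (1693 to 1767) and 1108 CPM (1069 to 1148), a ratio of 0.64 (0.58 to 0.70). Both superficial-like clusters shared this: the one led by Epha3 and Kit had 1669 and 1859 CPM, and the one led by Tenm3 and Calb1 had 1258 and 1532 CPM. Under the marker score division the ratios were 0.43 and 0.42.

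Genes past the mark between sublayers numbered 4 of 9 in epilepsy, against 40.1% of 5410 genes, with 3 higher (26.6% of genes) and 1 lower (13.5%). In control they numbered 2 of 9, both higher, against 29.9% of 7107 genes in either direction and 18.6% higher. Fgf14 and Scn2b were past it in both libraries, the intervals of Scn2b holding 0 (0.66 and 0.51), and Scn1a and Fgf12 in epilepsy. The Scn1a ratio was −0.50 (−0.69 to −0.31) in epilepsy and −0.11 (−0.25 to 0.02) in control. The Fgf12 ratio was 0.38 (0.26 to 0.49) in epilepsy and 0.04 (−0.03 to 0.12) in control. Scn3b was lower in superficial-like nuclei in control (−0.23, −0.39 to −0.07), with −0.15 (−0.40 to 0.09) in epilepsy.

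**Figure D4:**
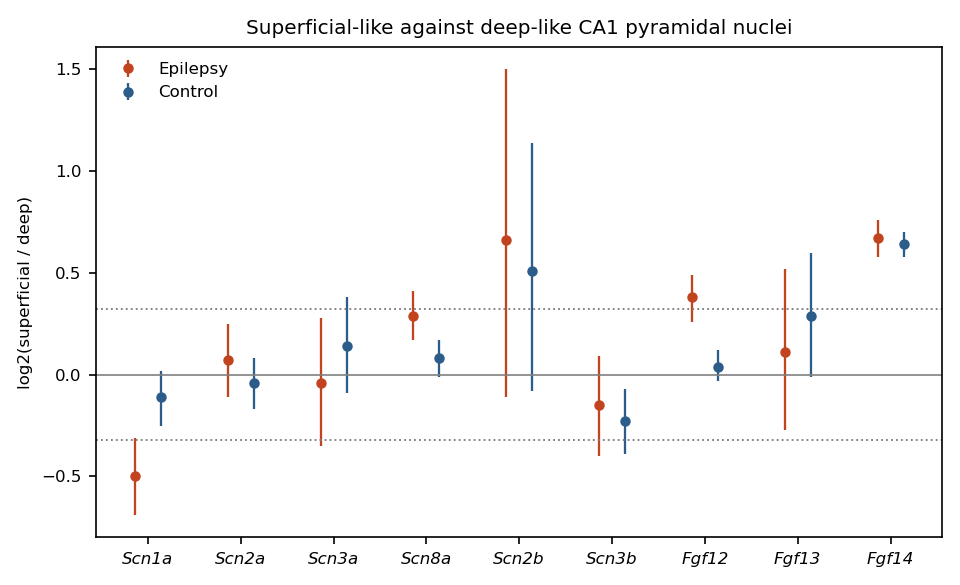
Log2 ratio of superficial-like to deep-like CA1 pyramidal nuclei (y axis) for each gene, epilepsy in red to the left of control in blue; bars are 95% intervals of counting error and dotted lines mark 0.32 in size. Fgf14 is at 0.67 and 0.64, and Scn1a and Fgf12 lie apart in the 2 libraries.

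Interneuron-like nuclei were few, and their ratios carry wide intervals. All 3 groups together had 2 of 7 genes past the mark, both lower, against 28.6% of 1682 genes in either direction and 15.0% lower. Members are counted from 50 UMIs, and over all genes with at least 50 UMIs the share in either direction was 36.4% here, 37.7% in the Sst/Sox6 group, 43.3% in the Adarb2/Cnr1 group, 44.9% in the Lamp5/Sv2c group and 37.3% in oligodendrocyte-like nuclei. Fgf13 was at 1135 CPM (1023 to 1256) in epilepsy and 1437 CPM (1347 to 1532) in control (log2 ratio −0.34, −0.52 to −0.17). This ratio turned to 0.09 (−0.20 to 0.37) when every nucleus was thinned to 1000 UMIs, and was −0.35 with equal weight per nucleus. The Lamp5/Sv2c group, where Fgf13 is highest, gave 23.0% of these UMIs in epilepsy and 25.4% in control, and with the share of each group held equal the ratio was −0.25, within the mark. Scn3a was at 63.6 and 110 CPM on 21 and 72 UMIs (−0.79, −1.56 to −0.07).

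By group, the Sst/Sox6 nuclei had 0 of 6 genes past the mark, against 28.7% of 703 genes, with Fgf12 at −0.20 (−0.38 to −0.02). The Adarb2/Cnr1 nuclei had 6 of 7 genes past it, all lower, against 34.6% of 419 genes in either direction and 17.2% lower. Of these 6, Fgf14 at 1688 and 2197 CPM (−0.38, −0.65 to −0.12) and Fgf13 at 402 and 608 CPM (−0.60, −1.15 to −0.07) had intervals below 0, and Fgf12 at 1727 and 1709 CPM (0.01) was the gene outside. After thinning, only Fgf12 (0.30), Fgf13 (−0.23) and Fgf14 (−0.28) kept 50 UMIs in this group, and 0 of these 3 passed the mark. The Lamp5/Sv2c nuclei had 0 of 6 past it, against 37.4% of 321 genes, while 2 passed with TMM factors and 3 at a Leiden resolution of 2.0. There Fgf13 was at 3574 and 4195 CPM (−0.23, −0.44 to −0.03) and 0.08 after thinning, and Fgf14 at 3022 and 3018 CPM (0.00). TMM scaling moved the ratios of the Adarb2/Cnr1 and Lamp5/Sv2c groups by −0.16 and −0.15. In oligodendrocyte-like nuclei 2 genes had at least 50 UMIs, and both were past the mark and higher, against 30.5% of 479 genes in either direction and 18.0% higher. They were Fgf12 at 284 and 205 CPM (0.47, −0.21 to 1.17) and Fgf14 at 351 and 269 CPM (0.38, −0.22 to 0.99), with intervals that held 0. As shares of the pyramidal level, both lay within the range of the 9 pyramidal markers there, with Fgf12 above their median in both libraries. That median was itself higher in epilepsy (27.2%) than in control (20.8%), and its part in these ratios was not tested.

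Genes that work beside the 9 were read in the same pyramidal-like nuclei. Of 25 genes of the axon initial segment and node, 4 were higher and 1 lower in epilepsy past the mark, against 13.7% and 14.8% of all genes tested, with a median log2 ratio of 0.00. Among the higher ones were the adhesion genes Chl1 (520 and 293 CPM, 0.83), Cntn2 (24.8 and 19.1 CPM, 0.37) and Nfasc (411 and 324 CPM, 0.34), the last a scaffold partner of ankyrin at the initial segment. Cntn1, a contactin that pairs with sodium channel beta subunits, was lower (343 and 485 CPM, −0.50, −0.58 to −0.42). Ank3, which encodes the ankyrin that anchors sodium channels and was chosen after its values were seen, was at 2273 and 1921 CPM (0.24, 0.21 to 0.28), short of that size.

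The 4 measured genes of the sodium leak channel complex stayed within the mark, with the pore gene Nalcn at 161 and 200 CPM (−0.31, −0.43 to −0.20) and its large partner Unc79 at 625 and 553 CPM (0.18, 0.11 to 0.24). Of 23 genes for kinases, ligases and trafficking partners of the channels, 4 were higher and 2 lower past the mark, against 13.7% and 14.8% of all genes tested, with a median of 0.03. Among the higher were the protein kinase C genes Prkca at 1842 and 1263 CPM (0.54, 0.51 to 0.58) and Prkce at 1551 and 1214 CPM (0.35, 0.31 to 0.39). The lower were Camk2g at 28.1 and 41.0 CPM (−0.55) and the kinase anchor gene Akap5 at 6.02 and 9.29 CPM (−0.63).

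Across the 14 levels of 7 groups in 2 libraries, each gene was set against 4822 others by Pearson correlation of log2(CPM + 10). These points share 2 libraries and differ in depth, so the values describe likeness only. Most like Fgf13 were Adamts17 (r = 0.98), Sgcz (0.97) and Mctp1 (0.96). Fgf12 was most like Kcnc2 (0.96), a potassium channel gene of fast-spiking interneurons, and Fgf14 most like Cacna1d (0.96). Scn1a was closest to Sgip1 (0.98), Scn2a to Bicdl1 (0.97), Scn3a to Kcnn2 (0.91), Scn8a to Rbfox2 (0.96), Scn2b to Man1a2 (0.90) and Scn3b to Arpp21 (0.97). The interneuron-like and oligodendrocyte-like levels of Scn2b rested on 0 to 5 UMIs each, so its closest gene is not informative. Among the 9 genes themselves, Scn1a and Fgf14 were the most alike pair (0.92), and Fgf13 and Scn3b the least (−0.57).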

How the data were processed

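The authors deposited raw UMI counts, 1 sparse matrix of genes by nuclei for each library. Per the labels' protocols, 15000 nuclei per sample were loaded for 3′ droplet libraries and read at 75 bp. Per the submitters' processing notes, Cell Ranger 2.2.0 and GRCm38 (mm10) were used. The annotation, the choice of barcodes and the use of intronic reads are not stated in the labels. Nuclei with at least 200 genes and at most 5% mitochondrial UMIs were kept, which removed 0. Scrublet in scanpy 1.11.5 marked 4 nuclei in each library with its own threshold (0.130% of epilepsy and 0.109% of control nuclei), too few to have worked, so the 3% of each library with the highest scores were removed (92 epilepsy and 110 control nuclei).

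The 2000 most variable genes, without the 9 genes and the listed partner genes, were put on one scale library by library, reduced to 30 components and clustered with leidenalg 0.10.2 at resolution 1.0 on 20 neighbours. A cluster took the class of its highest markers, with at least 3 of them at 20 CPM and 2-fold. Thresholds for naming were set after clusters had been seen. A pyramidal cluster was deep-like or superficial-like where Ndst4 and Calb1 differed in opposite directions, Ndst4 by 1.5-fold, and interneuron groups were cut at 0.05 of the highest Adarb2 level and 0.5 of the highest Cnr1 level. Glial clusters with pyramidal markers at 0.5 or more of the pyramidal level stayed unnamed, as did a low-UMI cluster with pyramidal markers, 318 epilepsy and 390 control nuclei, and they enter no comparison.

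Counts were summed per group and library and divided by the group total. Ratios carry exact conditional binomial intervals, differences of ratios conditional odds ratio intervals and shares Clopper-Pearson intervals, all at 95%. A count of 0 allows up to 3 counts. Comparisons needed 30 nuclei in each library, and members were counted where both libraries together held 50 UMIs. The scripts were tested on simulated data. TMM factors came from edgeR 4.0.16. Of the listed genes, 30330 identifiers occur in the GENCODE annotation of GRCm38 used for positions. The 9 genes and the partner lists were chosen with earlier results of these data known. Named were all 9 members, up to 5 genes per list with the largest ratio and 50 UMIs, and the 3 most alike genes per member. Some results on partner genes are not reported here. Ank3 was named outside this rule.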

Additional observations from a re-analysis of the deposited data

Results flagged for a closer look

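Scn1a and Scn8a had ratios of epilepsy to control of opposite sign in the sublayers. The difference, superficial-like minus deep-like, was −0.39 (log2) for Scn1a and 0.21 for Scn8a, each from 1 library per condition, so the difference was not tested against replicates. The deep Scn1a ratio was below 0 under 6 of 9 alternatives. The Scn8a interval held 0 under 5 of the 6 alternatives that give one. Scn3a and Fgf13 had ratios of opposite sign in all interneuron-like and all CA1 pyramidal-like nuclei. The difference, interneuron-like minus pyramidal-like, was −0.84 (−1.63 to −0.10) for Scn3a and −0.51 (−0.79 to −0.24) for Fgf13, again not tested against replicates. Scn3a rested on 21 epilepsy and 72 control UMIs in interneuron-like nuclei, and the interneuron ratio of Fgf13 was above 0 with thinning. The pyramidal ratios, 0.05 (−0.12 to 0.22) for Scn3a and 0.17 (−0.03 to 0.38) for Fgf13, had intervals that held 0, so their signs are not fixed. Differences past 0.32 in size between those classes were found for 27.0% of 1625 genes.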

How the results depend on the processing

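No paired analysis was possible because each condition has 1 library. Each pyramidal ratio was recomputed under 8 alternatives: doublets kept, at least 500 detected genes, the 9 genes and their partners among the variable genes, Leiden resolutions of 0.5 and 2.0, TMM factors, equal weight per nucleus, and thinning to 1000 UMIs. Of these 72 values, 68 stayed within the counting interval. The 4 others were Scn8a 0.01, Fgf12 −0.26 and Fgf14 −0.24 with TMM factors, and Scn3b −0.44 with thinning. Scn3a ranged from −0.05 to 0.07. The count past 0.32 in size in pyramidal-like nuclei, 0, became 1 with at least 500 detected genes, 1 with TMM factors and 3 with thinning, and stayed 0 at 1.5-fold and 2-fold. In superficial-like nuclei, 0 became 2 with doublets kept, at resolution 0.5, with TMM factors and with thinning, and 1 with at least 500 detected genes, the wider variable genes, resolution 2.0, equal weights and the marker score division. The superficial Scn1a ratio lay between −0.39 and −0.27. In deep-like nuclei 2 became 1 with the wider variable genes, thinning and the marker score division. In all interneuron-like nuclei 2 became 1 with doublets kept (Scn3a), with thinning (Scn8a at −0.38, where Scn3a had under 50 UMIs) and, chosen after seeing the data, with equal group shares (Scn3a). Genes past it the same way between sublayers in both libraries were 2, and 1 at resolution 0.5 and with the marker score division. Over the 9 alternatives this count ran from 1 to 3. The share of all genes past it the same way in both libraries was not computed. Among the 2 genes is Scn2b, whose intervals held 0 in both libraries. The Fgf12 difference between sublayers was 0.16 with the marker score division. Of ratios past 0.32 in size, signs turned for Fgf13 in all interneuron-like nuclei (0.09, thinned), Scn2b between sublayers in epilepsy (−0.12, marker score) and Fgf12 in the Lamp5/Sv2c group over pyramidal in epilepsy (0.61, resolution 2.0). Of 49 ratios of epilepsy to control within that size, 18 had the opposite sign under at least 1 alternative, among them Fgf13 in the Sst/Sox6 group (0.69, thinned) and Fgf12 in the Lamp5/Sv2c group (0.79, resolution 2.0). The causes were not tested. Scn1a and Fgf12 ratios in the activity-gene cluster were available under only 5 alternatives. At resolution 2.0 clusters were named anew and no Adarb2/Cnr1 group of 30 nuclei in each library formed. Whether the Lamp5/Sv2c group held the same nuclei there was not tested. Genes highest in an interneuron-like group in both libraries numbered 6, and 5 to 7 under the alternatives. The share of all genes was not computed, so this count is not read as a trait of the 9 genes. It includes Scn2a, whose highest group differed between the libraries and overlapped with its neighbours in the order.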
